A study of Aspergillus niger with 16 samples.

Results

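Transcript levels were compared between a strain of the filamentous fungus Aspergillus niger that lacks *gaaR* (ΔgaaR, strain CBS 141258) and its reference strain (CBS 141257) after 2 h on sugar beet pectin (SBP). The comparison took every library that the sample labels place in these 2 groups, which is 4 of the 16 libraries of the series, 2 for each strain. The labels give the deletion as the only stated difference between the strains and name no other allele of either; whether ΔgaaR is a single transformant is not stated in them. Both strains were first cultured on 2% fructose in complete medium, over 16 h, and the washed mycelium was moved at 2.5 g per 50 ml to minimal medium of pH 6 with 1% SBP at 30 °C and 250 rpm. For comparison, 2 further pairs of groups were used, each with 2 libraries of either strain: the same strains after 2 h with 25 mM D-galacturonic acid (GA) in place of pectin, and after 8 h on SBP.

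Pectin is a plant cell wall polymer whose backbone is made largely of GA. Fungi release GA from it with secreted enzymes: methylesterases take methyl groups off the backbone, endopolygalacturonases and lyases cut within it, and exopolygalacturonases free its ends, while other enzymes remove the arabinan and galactan side chains. The monomer is imported and broken down to pyruvate and glycerol by a short chain of enzymes. GaaR is the transcriptional activator of this system in A. niger, and GaaX, encoded next to it, is its repressor.

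The 4 libraries held 3698114 to 4385237 reads, and 10003 of 11580 genes listed in any library of the series passed the filter on low counts. The 23 genes that could be given a name all passed it and are described by role. Nothing in the labels ties the replicates to separate cultures, so the p-values measure a spread between libraries, which may be technical. That spread was estimated in 1 fit over all 16 libraries of the series and not from these 4 alone. The 2 ΔgaaR libraries lay further apart than the 2 reference libraries: among genes of at least 10 FPKM (reads scaled by the authors to gene length and library total), 557 of 6287 (8.86%) differed by more than 2-fold between the ΔgaaR replicates, against 88 of 6210 (1.42%) between the reference replicates. Of those 557 genes, 392 were higher in ΔgaaR replicate 1 and 165 in replicate 2. Values of each library are therefore given for the genes that matter.

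The deleted gene itself was examined first. *gaaR* (NRRL3_08195) had 0 and 12 reads in the ΔgaaR libraries, against 1959 and 1984 reads in the reference libraries. On the FPKM scale these were 0 and 1.43 in ΔgaaR and 234 and 215 in the reference. The groups lay far apart, with a log2 fold change of -8.40 (SE 0.74, adjusted p = 3.6e-06 in edgeR's quasi-likelihood test). The size of the change rested on the 12 reads of ΔgaaR replicate 2: without replicate 1 the log2 fold change was -7.43, and without replicate 2 no read was left, which makes *gaaR* at least 729-fold lower by a floor of 3 reads in the remaining library. Where in the gene these 12 reads lay cannot be read from gene counts. The neighbouring repressor gene *gaaX* (NRRL3_08194) had 15.7 and 20.8 FPKM in ΔgaaR, against 840 and 713 FPKM in the reference. That is 2.02% and 2.68% of the reference mean in the 2 ΔgaaR libraries, a log2 fold change of -5.43 (SE 0.25, adjusted p = 4.7e-09).

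Transcripts of GA uptake and catabolism were among the most abundant of the reference strain on pectin and were lower in the deletion strain. Ranked by FPKM among all genes, the dehydratase gene *gaaB* stood at 2354 and 929 and the L-glyceraldehyde reductase gene *gaaD* at 24 and 22 in the ΔgaaR libraries. In the reference these genes held the first and second rank, *gaaB* leading in replicate 1 and *gaaD* in replicate 2. Together the 5 genes took 0.457% and 0.380% of all reads in ΔgaaR, against 4.31% and 4.07% in the reference. In bulk RNA, fewer expressing hyphae and less transcript per hypha cannot be told apart.

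All 5 genes of this list were called lower (adjusted p under 0.05), where 14.6% of all genes tested were called, 7.21% lower and 7.35% higher. *gaaB* (NRRL3_06890), which encodes L-galactonate dehydratase, had 52.3 and 175 FPKM in ΔgaaR, against 12287 and 11159 FPKM in the reference. It changed by -6.76 on the log2 scale (SE 0.52, adjusted p = 5e-07), and by -7.67 without ΔgaaR replicate 2. Its ΔgaaR libraries were 0.446% and 1.496% of the reference mean, so the replicates differed from each other by more than 3-fold while both lay far below the reference. The reductase gene *gaaA* (NRRL3_05650), which catalyses the first step from GA, had 51.3 and 89.1 FPKM in ΔgaaR, against 4862 and 4437 FPKM in the reference (log2 fold change -6.09, SE 0.36). The aldolase gene *gaaC* (NRRL3_05649) had 69.6 and 116 FPKM in ΔgaaR, against 7338 and 7275 FPKM in the reference (-6.33, SE 0.43). The GA transporter gene *gatA* (NRRL3_00958) had 6.65 and 18.6 FPKM in ΔgaaR, against 847 and 853 FPKM in the reference (-6.14, SE 0.41, and -6.85 without ΔgaaR replicate 2). In these 4 genes replicate 2 of ΔgaaR was the higher of the deletion libraries, as it was for *gaaR* itself, and still at 2.18% or less of the reference mean.

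*gaaD* (NRRL3_10050) kept a much larger part of its level. It had 4325 and 3289 FPKM in ΔgaaR, against 11576 and 11249 FPKM in the reference. The ΔgaaR libraries thus held 37.9% and 28.8% of the reference mean (log2 fold change -1.56, SE 0.34, adjusted p = 0.0058). The groups did not overlap, which held for all 1456 called genes. Unlike in the other 4 genes of the list, replicate 1 was the higher ΔgaaR library.

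**Figure D1:**
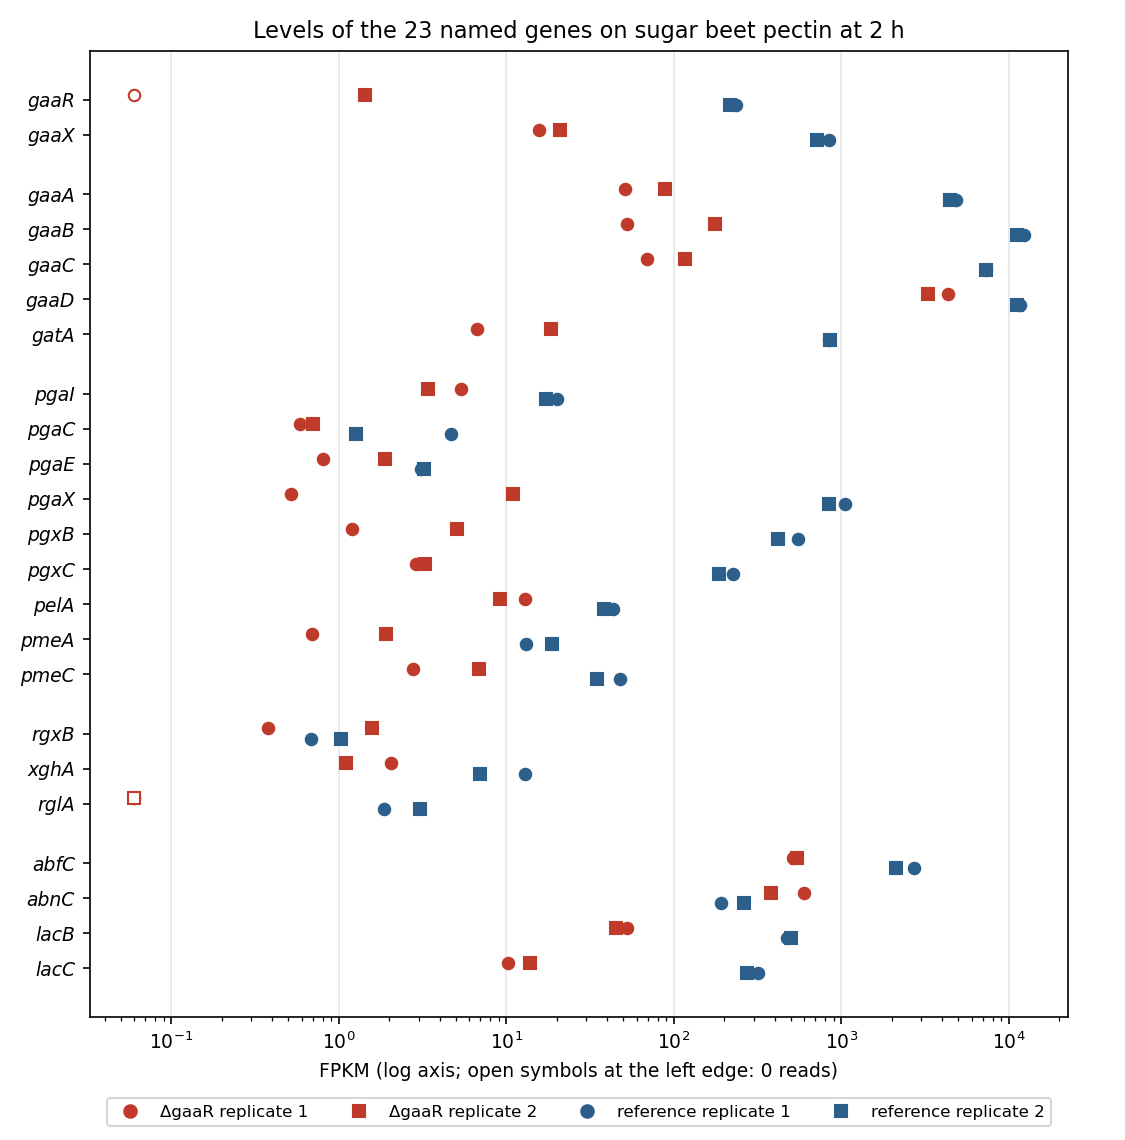
FPKM (log axis) of the 23 named genes in the 2 ΔgaaR libraries (red) and the 2 reference libraries (blue) on SBP at 2 h, by role from top to bottom: regulators, GA uptake and catabolism, homogalacturonan, rhamnogalacturonan and xylogalacturonan, side chains. Open symbols stand for 0 reads (*gaaR* in ΔgaaR replicate 1 and *rglA* in both ΔgaaR libraries); ΔgaaR lies left of the reference for 21 genes, right of it for *abnC*, and overlaps it for *rgxB*.

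Enzymes of the homogalacturonan backbone were also lower. Of 9 genes measured, 7 were called lower and 0 higher, where 7.21% of all genes tested were called lower. Their median log2 fold change was -3.14, against 0.07 over all genes tested, in a list chosen with earlier results of these data known. Exopolygalacturonases, which release single GA units, showed the largest changes of the list. Of these, *pgaX* (NRRL3_03144) had 0.52 and 10.9 FPKM in ΔgaaR (3 and 53 reads), against 1050 and 846 FPKM in the reference (5124 and 4534 reads). The ΔgaaR libraries differed by a factor of about 20.9 and lay at 0.0548% and 1.15% of the reference mean. Its log2 fold change of -7.50 (SE 1.02, adjusted p = 0.00015) was -6.59 without ΔgaaR replicate 1 and -10.64 without replicate 2. A second exopolygalacturonase gene, *pgxB* (NRRL3_08281), had 1.20 and 5.09 FPKM in ΔgaaR, against 549 and 418 FPKM in the reference (-7.34, SE 0.95). It changed by -6.71 without ΔgaaR replicate 1 and by -8.49 without replicate 2. In *pgxC* (NRRL3_05260), by contrast, the ΔgaaR libraries were close, at 2.90 and 3.25 FPKM, against 226 and 187 FPKM in the reference (-6.07, SE 0.39, adjusted p = 1e-07).

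The 2 pectin methylesterase genes held an intermediate position. *pmeA* (NRRL3_08325) had 0.69 and 1.91 FPKM in ΔgaaR, against 13.0 and 18.8 FPKM in the reference (log2 fold change -3.65, SE 0.58, adjusted p = 0.00054). *pmeC* (NRRL3_07470) had 2.78 and 6.89 FPKM in ΔgaaR, against 47.9 and 34.8 FPKM in the reference (-3.14, SE 0.48, adjusted p = 0.00037). Without ΔgaaR replicate 2 the changes were -4.35 for *pmeA* and -3.74 for *pmeC*. As in every called gene, the strains did not overlap in either, and in both ΔgaaR replicate 2 was the higher of its group.

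Of 4 genes for enzymes that cut inside the backbone, 2 were called lower and 0 higher, where 7.21% of all genes tested were called lower. All 4 were under 50 FPKM in the reference strain at this time. The pectin lyase gene *pelA* (NRRL3_00965) had 12.9 and 9.23 FPKM in ΔgaaR, against 43.2 and 38.1 FPKM in the reference (log2 fold change -1.85, SE 0.35, adjusted p = 0.0023). The endopolygalacturonase gene *pgaI* (NRRL3_02571) had 5.33 and 3.42 FPKM in ΔgaaR, against 20.2 and 17.3 FPKM in the reference (-2.06, SE 0.49, adjusted p = 0.011). It no longer passed when ΔgaaR replicate 2 (adjusted p = 0.061) or reference replicate 1 (adjusted p = 0.067) was left out. Both other endopolygalacturonase genes stayed under 5 FPKM in all 4 libraries and did not pass the test. *pgaC* (NRRL3_08805) had 3 and 3 reads in ΔgaaR, against 20 and 6 reads in the reference (-2.15, SE 1.03, adjusted p = 0.18), and its change was -0.97 without reference replicate 1 and -2.81 without reference replicate 2. *pgaE* (NRRL3_02835) had 4 and 8 reads in ΔgaaR, against 13 and 15 reads in the reference (-1.27, SE 0.54, adjusted p = 0.13). That these genes missed the threshold does not show that they were equal in the strains.

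Genes for the rhamnogalacturonan and xylogalacturonan parts of pectin had few reads in either strain. Of the 3 measured, 2 were called lower and 0 higher, where 7.21% of all genes tested were called lower. The xylogalacturonan hydrolase gene *xghA* (NRRL3_07469) had 11 and 5 reads in ΔgaaR, against 59 and 35 reads in the reference. That is 2.04 and 1.10 FPKM in ΔgaaR and 13.0 and 7.01 FPKM in the reference (log2 fold change -2.61, SE 0.66, adjusted p = 0.015). It missed the threshold when ΔgaaR replicate 2 (adjusted p = 0.072) or reference replicate 1 (adjusted p = 0.13) was left out, and the change was -3.29 without ΔgaaR replicate 1. No read of the rhamnogalacturonan lyase gene *rglA* (NRRL3_00684) was counted in ΔgaaR, against 11 and 20 reads in the reference. With a floor of 3 reads per ΔgaaR library this is at least 5.21-fold lower. The test called it (adjusted p = 0.014), but not without ΔgaaR replicate 1 (adjusted p = 0.081) or reference replicate 2 (adjusted p = 0.079). For the exorhamnogalacturonase gene *rgxB* (NRRL3_08631) the counts were 2 and 7 reads in ΔgaaR, against 3 and 5 reads in the reference, and the groups overlapped (0.11, SE 0.92, adjusted p = 0.96). Its value was 0.72 without ΔgaaR replicate 1 and -0.99 without ΔgaaR replicate 2, so its direction rested on 1 library.

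Side chain enzymes differed among themselves. Of 4 genes measured, 3 were called lower and 0 higher, where 7.21% of all genes tested were called lower. The arabinofuranosidase gene *abfC* (NRRL3_10865), whose product takes arabinose off side chains, was the most abundant of them in the reference libraries. It had 512 and 543 FPKM in ΔgaaR, against 2706 and 2106 FPKM in the reference, and kept 21.9% of its mean level (log2 fold change -2.19, SE 0.27, adjusted p = 5.8e-05). The β-galactosidase gene *lacB* (NRRL3_02479) had 52.5 and 45.2 FPKM in ΔgaaR, against 472 and 503 FPKM in the reference (-3.31, SE 0.29). The second β-galactosidase gene, *lacC* (NRRL3_11738), had 10.3 and 13.8 FPKM in ΔgaaR, against 320 and 275 FPKM in the reference (-4.65, SE 0.31). In all 3 the ΔgaaR libraries were close to each other and far from the reference. The endoarabinanase gene *abnC* (NRRL3_05407) had the opposite direction, with 599 and 379 FPKM in ΔgaaR, against 191 and 264 FPKM in the reference. The groups did not overlap, where 29.9% of all genes tested had both ΔgaaR libraries above both reference libraries. The *abnC* change of 1.13 (SE 0.39) missed the threshold in edgeR (adjusted p = 0.061). It passed in 7 of 13 alternative settings, among them DESeq2 (adjusted p = 0.031), and without ΔgaaR replicate 2 it was 1.54 (adjusted p = 0.017).

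Across the 22 named genes other than *gaaR*, 18 were called lower and 0 higher, where 7.21% of all genes tested were called lower and 7.35% higher. The ΔgaaR libraries lay below both reference libraries for 20 of them, above for 1 and overlapped for 1, where 25.8% of all genes tested lay below and 29.9% above. Many of these names were taken from work on GaaR itself, and the lists were chosen with earlier results of these data known. The direction they share is therefore not independent evidence. What remained in ΔgaaR differed widely between the genes called lower. It was at most 2.18% of the reference mean in either library for *gaaA*, *pgaX*, *gaaB*, *pgxB*, *gaaC*, *pgxC* and *gatA*. The range was 3.45% to 20.4% for *lacC*, *lacB*, *pmeA*, *pmeC* and *xghA*, and 18.2% to 37.9% for *abfC*, *pelA*, *pgaI* and *gaaD*. *gaaX* held 2.02% and 2.68%, and *rglA* had 0 reads in both ΔgaaR libraries. On the TMM-adjusted scale 10 of the 18 genes called lower were higher in ΔgaaR replicate 2, 7 were higher in replicate 1 and 1 had 0 reads in both. Among all genes called lower 429 of 721 were higher in replicate 2, and among all genes tested 4643 of 10003. *gaaR* itself stood at 0.637% of the reference mean in replicate 2. The ΔgaaR libraries of the other conditions also held *gaaR* signal. It was 3.92 and 0.1 FPKM on GA, against 24.1 and 28.3 FPKM in the reference. At 8 h on pectin it was 3.01 and 2.69 FPKM, against 58.15 and 62.9 FPKM in the reference. Whether RNA or reads of the reference strain entered any of these libraries was not tested.

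**Figure D2:**
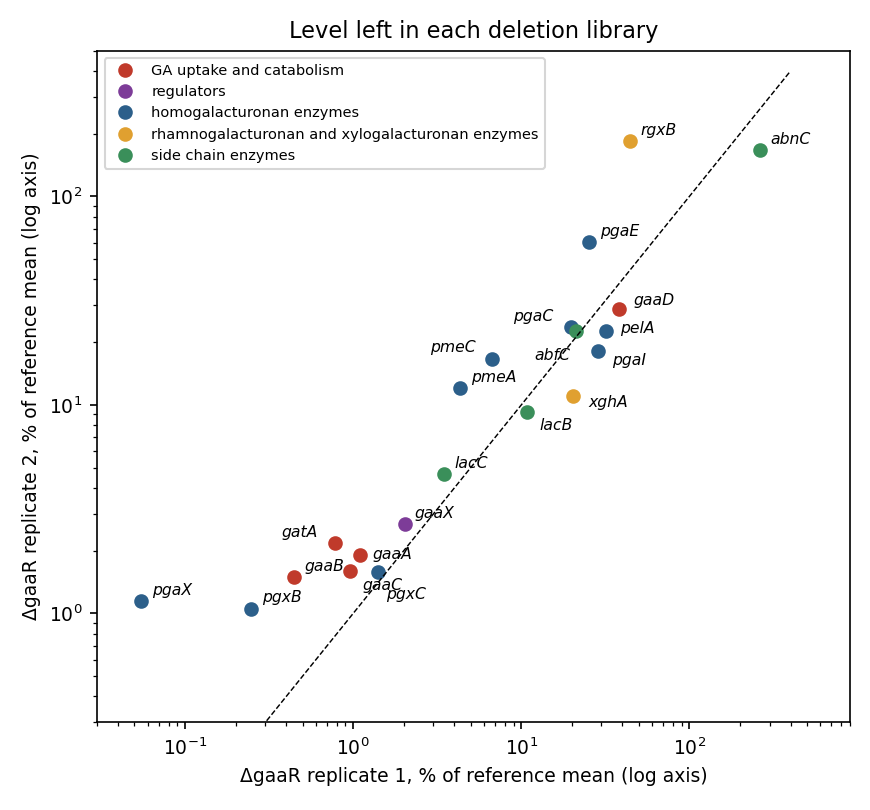
Level of 21 named genes in ΔgaaR replicate 2 (vertical) against ΔgaaR replicate 1 (horizontal), each as a percentage of the reference mean, on log axes; the dashed line marks equality and *gaaR* and *rglA*, with 0 reads in replicate 1, are left out. *pgaX* at 0.0548% and 1.15% lies furthest above the line, and *gaaD* at 37.9% and 28.8% lies below it.

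Among all 10003 genes, 1456 were called, 721 lower and 735 higher in ΔgaaR. The split depended on the scaling and the tool, with 827 lower and 601 higher under RLE scaling, 898 lower and 700 higher in DESeq2, 610 lower and 761 higher under total count scaling, and 573 lower and 731 higher in limma on log2(FPKM + 0.1). The balance of directions changed with the size of the difference. Among calls of at least 2-fold, 489 were lower and 495 higher. Among calls of at least 8-fold, 89 were lower and 29 higher, and among those of at least 32-fold 28 were lower and 8 higher. Of the 28, 10 were named genes, *gaaR* included. The surplus of lower genes among calls of at least 8-fold was present in each of 13 alternative settings.

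These totals moved with single libraries. The number of calls was 634 without ΔgaaR replicate 1, 1803 without ΔgaaR replicate 2, 592 without reference replicate 1 and 572 without reference replicate 2. A fit of these 4 libraries alone called 736, of which 713 were among the 1456. Calls of at least 8-fold stood at 64 lower and 18 higher without ΔgaaR replicate 1, and at 101 lower and 49 higher without ΔgaaR replicate 2.

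**Figure D3:**
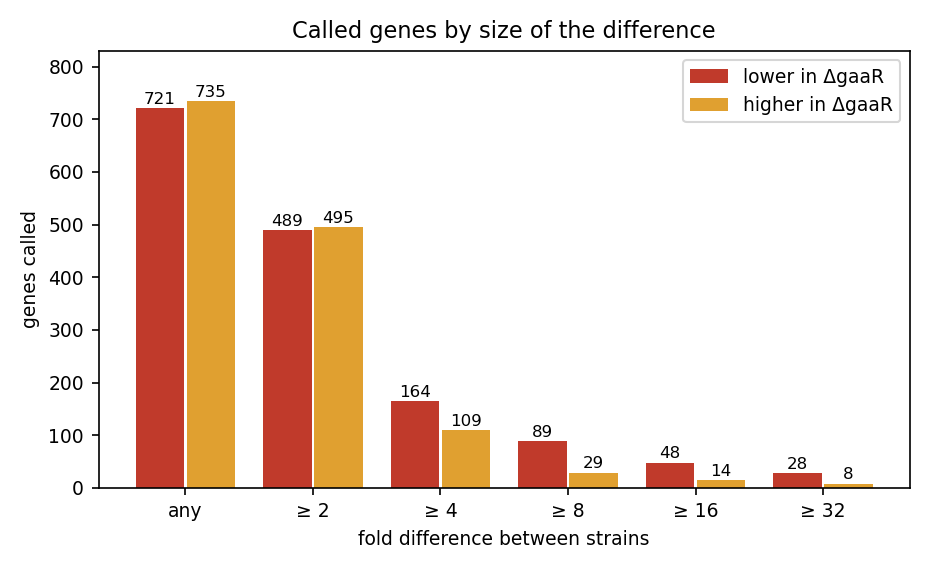
Number of genes called lower (red) and higher (yellow) in ΔgaaR on SBP at 2 h, for any size of difference and for at least 2, 4, 8, 16 and 32-fold. The bars are about equal at 489 and 495 for 2-fold and part at 89 and 29 for 8-fold.

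**Figure D4:**
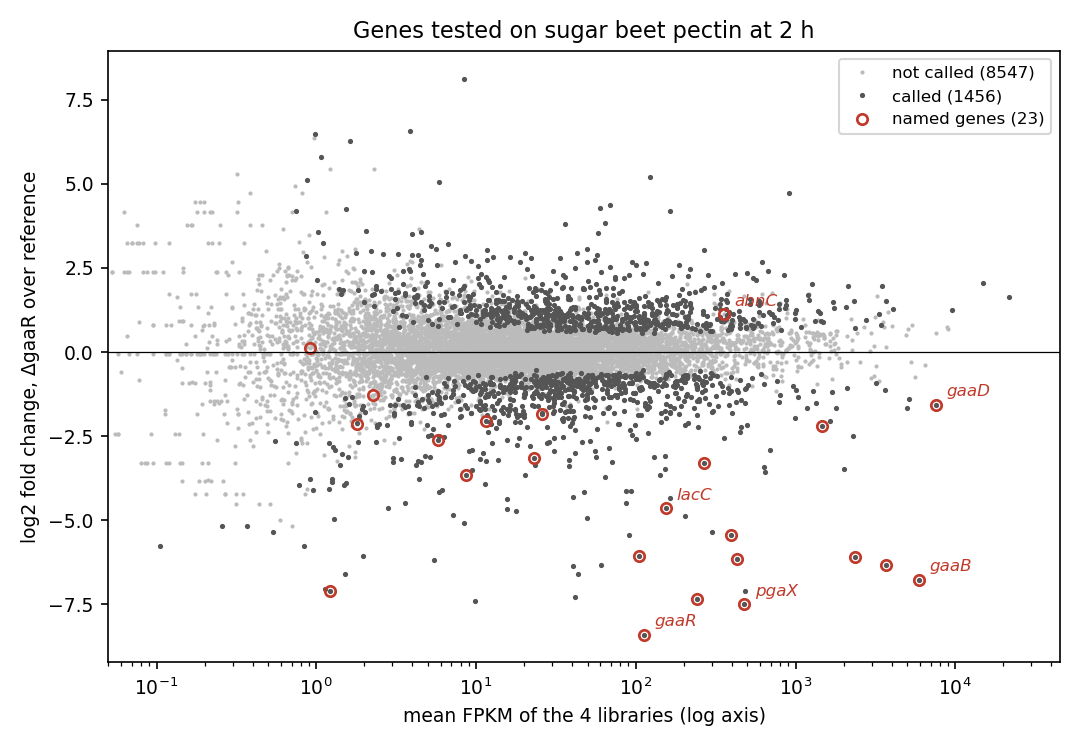
Log2 fold change of ΔgaaR over reference against the mean FPKM of the 4 libraries (log axis) for the genes tested, with called genes in dark grey and the 23 named genes ringed. The ringed genes lie mostly below 0, with *gaaR* at -8.40 and *gaaB* at -6.76, while *abnC* lies above at 1.13.

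Calls were more frequent among abundant transcripts. Of 674 genes with a mean under 1 FPKM 2.23% were called, of 4838 genes with 10 to 100 FPKM 16.3%, and of 150 genes of at least 1000 FPKM 30.0%. In the last class, 20 were lower and 25 higher. The median absolute log2 fold change of these classes was 0.922, 0.389 and 0.57, so it was largest where calls were rarest. Whether the shares called follow read depth was not tested. Genes called lower took 7.02% and 8.29% of all reads in ΔgaaR, against 23.3% and 23.6% in the reference. Genes called higher took 21.7% and 16.7% in ΔgaaR, against 7.95% and 7.74% in the reference. As these genes were picked by the same values, the shares only describe how much of the transcript pool was involved. In ΔgaaR replicate 1 more reads lay in the higher genes than in replicate 2, and 590 of the 735 genes called higher had their larger value in replicate 1. The median coding length was 1506 bases for genes called lower, 1071 for genes called higher and 1320 for all genes tested.

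Most called genes have no name in the tables used here. Of calls of at least 2-fold with a mean of at least 10 FPKM there were 364 lower and 386 higher. Among the 10 lowest 5 had names, and among the 10 highest 0. The lowest without a name, NRRL3_09863, had 0 and 1.13 FPKM in ΔgaaR (0 and 5 reads), against 81.5 and 85.1 FPKM in the reference (log2 fold change -7.28, SE 0.57, adjusted p = 1.1e-06). It changed by -6.33 without ΔgaaR replicate 1 and was at least 146-fold lower without replicate 2, by the floor of 3 reads. Next came NRRL3_05252, with 0.95 and 14.2 FPKM in ΔgaaR, against 1079 and 837 FPKM in the reference (-7.10, SE 0.92, adjusted p = 0.0001). Without ΔgaaR replicate 1 or 2 its change was -6.22 or -9.81. Its values lay near those of *pgaX* in all 4 libraries.

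The highest gene without a name, NRRL3_03278, had 277 and 200 FPKM in ΔgaaR, against 6.28 and 6.93 FPKM in the reference (log2 fold change 5.19, SE 0.51, adjusted p = 6.6e-06). NRRL3_07947 followed with 2490 and 1035 FPKM in ΔgaaR, against 73.5 and 66.0 FPKM in the reference (4.72, SE 0.39, adjusted p = 1.1e-06, and 3.74 without ΔgaaR replicate 1). Both genes were high in each ΔgaaR library, and the ΔgaaR replicates of NRRL3_07947 were more than 2-fold apart. Called genes also had neighbours by tag number: 204 of 721 lower genes (28.3%) had a gene with the preceding or following tag called lower, and 196 of 735 higher genes (26.7%) one called higher. Over all genes tested, 12.6% had such a neighbour called lower and 12.8% one called higher. No run of consecutive tags with the same call was longer than 4 genes in either direction.

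Whether the deletion effect on pectin at 2 h differed from that with free GA at 2 h was tested as an interaction in the same fit, with no library shared between the effects. The deletion effect itself was called for 49.7% of all genes on GA. The difference passed for 37.3% of all genes, 19.4% with a negative difference, and for 9 of the 23 named genes. The difference was negative in 8 of these 9 and positive in *gaaD*. The deleted gene *gaaR* is among the 8. Its value compares the reads left in ΔgaaR with a reference mean of 224 FPKM on pectin and 26.2 FPKM on GA. Among the 8, *abnC* had a positive change in both media, the smaller one on pectin, and the other 7 had negative changes that were larger on pectin. For *gaaD* the log2 fold change was -1.56 on pectin and -4.13 on GA, a difference of 2.57 (SE 0.47, adjusted p = 0.00048). Taken as a ratio, the gap between the media was larger in the deletion strain, while as a difference in FPKM it was about equal in the strains: *gaaD* had 3807 ± 732 FPKM in ΔgaaR on pectin and 507 ± 189 FPKM in ΔgaaR on GA, while the reference had 11412 ± 231 FPKM on pectin and 8104 ± 884 FPKM on GA (SD, n = 2 each).

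The β-galactosidase genes changed more on pectin. *lacC* had a log2 fold change of -4.65 on pectin and -1.81 on GA (difference -2.83, SE 0.40, adjusted p = 4.4e-05), and *lacB* -3.31 on pectin and -1.82 on GA (-1.49, SE 0.38, adjusted p = 0.0056). Levels of *lacC* in ΔgaaR were 12.0 ± 2.50 FPKM on pectin and 9.08 ± 3.87 FPKM on GA, against 298 ± 31.9 FPKM on pectin and 28.9 ± 3.81 FPKM on GA in the reference (SD, n = 2 each). As a ratio and as a difference in FPKM, the gap between the media was larger in the reference strain. *abnC* had a change of 1.13 on pectin and 4.22 on GA (difference -3.09, SE 0.56, adjusted p = 0.0004, and -2.26 without ΔgaaR replicate 2 on GA). Its ΔgaaR level was 489 ± 155 FPKM on pectin and 1986 ± 984 FPKM on GA, and the gap of the ΔgaaR libraries on GA was wide, at 1291 and 2682 FPKM.

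For the first step of the pathway, *gaaA*, the difference was -1.49 (SE 0.42, adjusted p = 0.01), and for the repressor gene *gaaX* -1.07 (SE 0.31, adjusted p = 0.011). That of *gaaX* did not pass without ΔgaaR replicate 1 on GA (-0.84, adjusted p = 0.06) or without reference replicate 1 on pectin (-0.96, adjusted p = 0.052). The differences for *gaaC* (-0.51, SE 0.49, adjusted p = 0.45) and *gatA* (0.07, SE 0.49, adjusted p = 0.94) did not pass, which does not show that the effects were equal. That of *gatA* was -0.65 without ΔgaaR replicate 2 on pectin (adjusted p = 0.33). *gaaB*, *pgxB* and *gaaR* passed, but the call was lost in 6, 6 and 1 of the 8 fits that left out a library. With all libraries of the groups kept, it was also lost in 4 of 9 other settings for *gaaB* (adjusted p up to 0.101), in 6 of 9 for *pgxB* (up to 0.427) and in 1 of 9 for *gaaR* (0.0602).

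For the later time on pectin, the deletion effect was called for 43.8% of all genes at 8 h. The difference of effects passed for 28.0% of all genes, 13.4% with a negative difference. It passed for 9 of the 23 named genes, with a negative difference in 6. The deleted gene *gaaR* is among the 6, with a reference mean of 224 FPKM at 2 h and 60.5 FPKM at 8 h. The largest called difference was that of *pelA*, with a log2 fold change of -1.85 at 2 h and -6.57 at 8 h (difference 4.72, SE 0.50, adjusted p = 8.1e-06). In ΔgaaR its level was 11.1 ± 2.62 FPKM at 2 h and 9.02 ± 0.44 FPKM at 8 h, against 40.6 ± 3.65 FPKM at 2 h and 862 ± 182 FPKM at 8 h in the reference (SD, n = 2 each). As a ratio and as a difference in FPKM, the gap between the times was larger in the reference strain. *xghA* differed in direction as well, at -2.61 at 2 h and 2.01 at 8 h (difference -4.62, SE 0.81, adjusted p = 0.00057, and -5.30 without ΔgaaR replicate 1 at 2 h). It had 1.57 ± 0.66 FPKM in ΔgaaR at 2 h and 74.1 ± 12.3 FPKM in ΔgaaR at 8 h, against 9.995 ± 4.22 FPKM at 2 h and 18.5 ± 5.66 FPKM at 8 h in the reference.

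The arabinan enzymes also differed between the times. *abfC* was lower in ΔgaaR at 2 h (-2.19) and had a change of 0.14 at 8 h, which did not pass (adjusted p = 0.7); the difference was -2.33 (SE 0.37, adjusted p = 0.00027). At 8 h it had 484 ± 24.5 FPKM in ΔgaaR and 442 ± 27.5 FPKM in the reference, close to the 528 ± 21.9 FPKM of ΔgaaR at 2 h and far from the 2406 ± 424 FPKM of the reference at 2 h (SD, n = 2 each). *abnC* had a change of 1.13 at 2 h and 3.55 at 8 h (-2.42, SE 0.55, adjusted p = 0.004). Differences between the times were not detected for *gaaA*, *gaaB*, *gaaC*, *gaaD* and *gatA* (adjusted p from 0.085 to 0.95), which does not show that the effects were equal. *gaaB* passed without ΔgaaR replicate 2 at 2 h (-2.28, adjusted p = 0.0037).

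**Figure D5:**
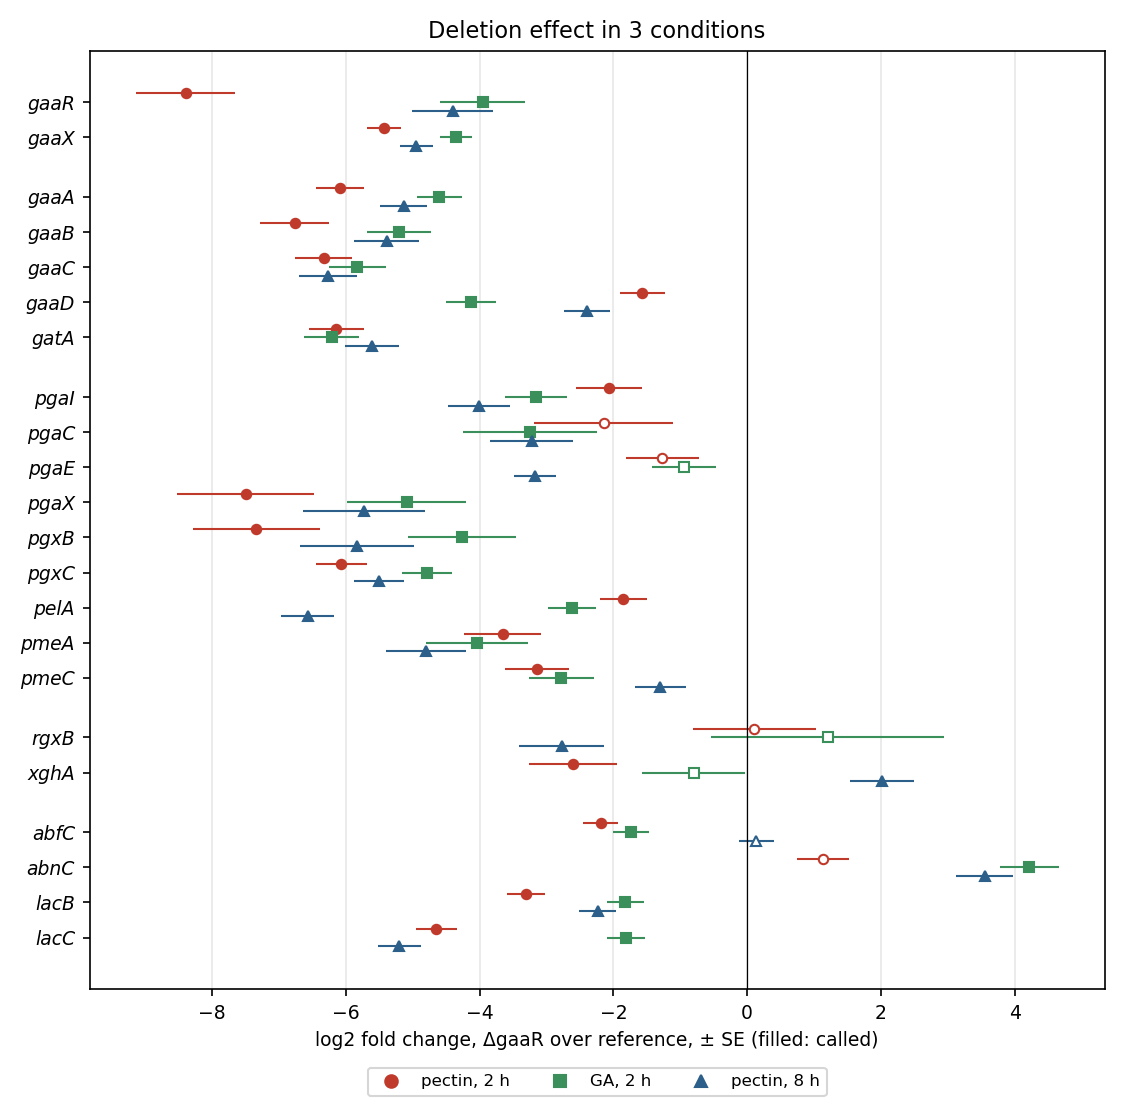
Log2 fold change of ΔgaaR over reference with its SE for 22 named genes on pectin at 2 h (red circles), GA at 2 h (green squares) and pectin at 8 h (blue triangles); filled symbols passed the test and *rglA*, with 0 reads in ΔgaaR on pectin at 2 h, is left out. *gaaD* lies at -1.56 on pectin at 2 h and -4.13 on GA, and *pelA* at -1.85 on pectin at 2 h and -6.57 at 8 h.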

How the data were processed

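Per the file headers, each of 16 files held an expected count, an FPKM value and a length per gene; BWA, Bowtie2 and RSEM are listed in the submitters' processing notes, with neither version nor role, and the genome build is not given in the sources used here. Expected counts in the deposited files were not normalized (0.326% were not whole), and the FPKM values were scaled by the authors to length and library total. Lengths were multiples of 3 for 100% of genes, hence coding lengths. Unlisted genes were taken as 0.

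After rounding, the counts entered edgeR's two-sided quasi-likelihood test (edgeR 4.0.16, R 4.3.3) with TMM scaling and filterByExpr in 1 fit of 16 libraries in 8 groups (8 residual degrees of freedom), with Benjamini-Hochberg adjustment over 10003 genes. SE is the absolute log2 fold change divided by the square root of F. The script was tested on simulated data with the same spread for all genes and groups. That test cannot show how often false calls arise where groups differ in spread, as ΔgaaR and reference did here. Alternatives were DESeq2 1.42.0, limma 3.58.1 on log2(FPKM + 1) and log2(FPKM + 0.1), other scaling and filters, a replicate block and leaving out libraries. Figures and summaries were made in Python 3.11.15 with pandas 2.3.3 and matplotlib 3.10.9.

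The files carry NRRL3 tags without names. Names of 23 genes in 5 lists were recalled from publications. In the RefSeq table of another strain (ASM285v2), all 23 recalled tags of that strain were found, 5 carried the same symbol and 0 another, and 21 of 21 pairs on a shared contig kept the tag order; the span there was shorter than the coding length for *gaaC*. The genes named are all 23, plus the 2 highest and 2 lowest unnamed calls of at least 2-fold and 10 FPKM. Members and lists were chosen with earlier results of these data known.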

Additional observations from a re-analysis of the deposited data

Results flagged for a closer look

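The deletion effect differed between conditions by edgeR's interaction test for the genes below. Each value is the log2 fold change on pectin at 2 h minus that in the other condition. For *gaaR*, the deleted gene, it compares the reads left in ΔgaaR with the reference level in each condition. Against GA at 2 h the difference was -1.49 for *gaaA*, 2.57 for *gaaD*, -3.09 for *abnC*, -1.49 for *lacB*, -2.83 for *lacC* and 3.55 for NRRL3_07947, and these passed without any 1 of the 8 libraries involved (highest adjusted p = 0.042, for *gaaA*). NRRL3_07947 stood at 2.58 without ΔgaaR replicate 1 on pectin, and *abnC* at -2.26 without ΔgaaR replicate 2 on GA. The difference of -1.07 for *gaaX* lost the call in 2 of 8 such fits. For *gaaB* (-1.56) it was lost in 6 of 8, with -0.93 (adjusted p = 0.21) without ΔgaaR replicate 1 on GA and -2.47 without ΔgaaR replicate 2 on pectin. For *pgxB* (-3.07) the call was lost in 6 of 8, and without ΔgaaR replicate 1 on GA the value was 1.13 (adjusted p = 0.56); it was -4.04 without ΔgaaR replicate 2 on GA, and -2.45 or -4.23 without ΔgaaR replicate 1 or 2 on pectin. *gaaR* itself had -4.44, and -0.61 (adjusted p = 0.9) without ΔgaaR replicate 1 on GA, the library with 3.92 FPKM of *gaaR*; it had -5.41 without ΔgaaR replicate 2 on GA and -3.47 without ΔgaaR replicate 1 on pectin.

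Against pectin at 8 h the differences of 4.72 for *pelA*, -4.62 for *xghA*, -2.33 for *abfC*, -2.42 for *abnC*, -4.00 for *gaaR*, 3.81 for NRRL3_03278 and 3.48 for NRRL3_07947 passed without any 1 of 8 libraries (highest adjusted p = 0.031, for *gaaR*). That of *gaaR* was lost in 1 of 9 other settings (adjusted p = 0.0882). NRRL3_03278 stood at 2.52 without reference replicate 2 at 8 h and at 4.498 without replicate 1, and NRRL3_07947 at 2.51 without ΔgaaR replicate 1 at 2 h. *gaaR* stood at -3.02 without ΔgaaR replicate 1 at 2 h. NRRL3_09863 differed by -3.79, and by -2.84 without ΔgaaR replicate 1 at 2 h; its call was lost in 1 of 8 fits, the one without ΔgaaR replicate 2 at 8 h (-3.43, adjusted p = 0.065). Calls near the threshold were those of *pgaI* (1.95, lost in 7 of 8), *pgaE* (1.91, lost in 6), *pmeC* (-1.84, lost in 6, and -2.43 without ΔgaaR replicate 2 at 2 h) and *lacB* (-1.07, lost in 7).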

How the results depend on the processing

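With only the 4 libraries compared, 736 genes were called, 458 lower and 278 higher, and 15 were at least 8-fold higher. Calls of at least 8-fold numbered 49 lower and 11 higher with limma on log2(FPKM + 1), 48 lower and 11 higher without its filter, and the higher ones 44 with log2(FPKM + 0.1) and 18 with DESeq2; a larger pseudocount lowers the fold of low genes by construction. Leaving out 1 library gave 572 to 1803 calls, 343 to 770 lower and 229 to 1033 higher, 550 to 1401 of at least 2-fold, 64 to 101 at least 8-fold lower and 18 to 49 at least 8-fold higher; fewer libraries enter these fits, and the lone sample is assumed to vary like the other groups. Called named genes numbered 17 to 18 of 23 in the 2 h comparison, 5 to 12 for the difference from GA and 5 to 9 for that from 8 h. With all libraries kept, 19 of the 23 named genes were called in the 2 h comparison, where 14.6% of all genes were. Each difference passed for 9 of the 23, where 37.3% (GA) and 28.0% (8 h) of all genes passed. Whether the differences passed more often among named genes than among all genes was not tested. With the replicate block 1461 genes were called. The replicate numbers showed no pairing between the strains on pectin at 2 h: the replicate differences correlated at 0.0245. Those of ΔgaaR on pectin at 2 h correlated at -0.393 with those of ΔgaaR on GA and at 0.192 with those of ΔgaaR at 8 h. Over 28 pairs of groups the range was -0.393 to 0.304. What such shared differences stem from was not tested. The block turned the *abnC* change (1.20, adjusted p = 0.043) into a call and ended no call of the 2 h comparison among the genes named. Among those genes 334 of 349 alternative values for 2 h stayed on their side of the threshold, 8 lost and 7 gained a call. For the differences, 423 of 458 (GA) and 411 of 459 (8 h) did so. These counts include values that changed sign but passed in neither fit. Such were *rgxB* at 2 h (0.11, and -0.99 without ΔgaaR replicate 2) and the GA difference of *pgaX* (-2.41, and 1.21 without ΔgaaR replicate 1 on GA). The called GA difference of *pgxB* reversed without ΔgaaR replicate 1 on GA, with a range of -4.23 to 1.13. Depth limits *pgaC*, *pgaE*, *rgxB* and *rglA* in the 2 h comparison, each at 20 reads or fewer per library on pectin at 2 h.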
